A study of Homo sapiens with 20 samples.

Results

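The first 90 minutes after DRB were compared with the moment of its addition in U2OS cells, a line grown from a human osteosarcoma, by setting the 5 arrays at 1.5 hr of DRB against the 5 arrays at 0 hr, 10 of the 20 arrays of the study. Arrays were paired by their labelled treatment, which began before DRB, and this gave 5 pairs. Whether the stress went on during DRB is not stated in the labels, so a change in a stressed pair may have been measured with or without the agent present. The treatments were hypoxia (below 0.1% oxygen), tunicamycin (2.5 ug/ml), emetine (100 ug/ml), depletion of UPF1 by the hairpin that the labels write shRent1, and none (control), and the labels give a duration of 3 hr for each, the hairpin included. Cells of all 5 treatments then received DRB at 100 ug/ml for the later arrays, and cells at 0 hr had none. Each treatment and time had 1 array, so a change within a treatment has no replicate. No hairpin is named for the control, and nothing in the labels ties arrays to separate cultures, so p-values measure only the spread over these arrays.

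DRB blocks the kinase that releases RNA polymerase II into productive elongation, so new messenger RNA stops being made and what is left decays. Transcripts that vanish first are short-lived ones, classically those of immediate early genes, cytokine feedback inhibitors and other regulators whose 3' ends carry AU-rich elements, and unprocessed nuclear RNA. Tunicamycin blocks N-glycosylation and so leaves proteins misfolded in the endoplasmic reticulum (ER), emetine halts translating ribosomes, and UPF1 is the helicase of nonsense-mediated mRNA decay (NMD). RNA polymerases I and III do not depend on the kinase that DRB blocks. Values are microarray signals on a linear scale or their log2, and a change is the log2 signal at 1.5 hr minus that at 0 hr, relative to the typical transcript of the array because the deposited values were normalized between arrays.

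Over the 10 arrays the median signal was 37.7 to 40.1 and the upper quartile 177.1 to 200.9, and pairs of arrays correlated with Pearson's r of 0.954 to 0.994 over probe sets. Of 10 mesenchymal markers, 9 lay above the filter value (26.0) on all 10 arrays, with a summed signal of 38412 to 43614 at 1.5 hr and 37020 to 43797 at 0 hr. NT5E read 13.6 to 20.3. Markers of other cell types summed to 750 to 928 at 1.5 hr and 709 to 830 at 0 hr. Of these 14, 7 lay above the filter value on every array: EPCAM (187.8 to 359.0), SYP (70.4 to 133.6), PECAM1, VWF, GFAP, DES and HBB. PTPRC, ALB and CDH5 lay below it on all 10. UPF1 read 92.4 at 1.5 hr and 169.5 at 0 hr in the depleted cells, against 314.1 to 419.3 at 1.5 hr and 309.9 to 537.5 at 0 hr in the other 4 treatments. The 12 spiked poly-A controls stayed at the floor (highest log2 signal 4.53), so no absolute scale could be set. The ratio of the 3' to the 5' probe set of ACTB, a measure of RNA and labelling quality, differed between treatments and little between times: as log2 it was 2.002 at 1.5 hr and 1.97 at 0 hr in hypoxia, 0.57 and 0.65 in tunicamycin, 2.23 and 2.06 in emetine, 1.31 and 1.16 after UPF1 depletion, and 0.49 and 0.65 in control.

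Sequences are shown for 2 groups of transcripts on which the results turn. The first are the mature miRNAs of 2 noncoding genes lost in every treatment, MIRLET7D and the miR-181 host gene MIR181A2HG. The arrays measured the precursor or host RNA, not these mature forms. Capitals mark the seed, bases 2 to 8, and miR-181a-5p and miR-181b-5p share theirs (mature sequences of RefSeq, GRCh38.p14). They lie at chr9:94178841-94178862, chr9:124692480-124692502 and chr9:124693725-124693747, all on the plus strand.
hsa-let-7d-5p: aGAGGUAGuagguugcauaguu
hsa-miR-181a-5p: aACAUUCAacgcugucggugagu
hsa-miR-181b-5p: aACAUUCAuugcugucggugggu

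The second are promoters of 3 regulators of NF-kappaB and MAP kinase signalling, shown because 1 of them was lost in every treatment (NFKBIZ, chr3:101827740-101828039, plus strand) and 2 were at -1 or lower in 4 treatments and above -0.5 in emetine (NFKBIA, chr14:35404700-35404999, minus strand, and DUSP1, chr5:172771146-172771445, minus strand). Each runs from 250 bases before to 50 after the RefSeq start of the gene (GRCh38.p14), on the strand of the gene. Capitals mark matches, on either strand, to the NF-kappaB motif GGGANNNNCC and to the TATA box TATAAA.
NFKBIZ: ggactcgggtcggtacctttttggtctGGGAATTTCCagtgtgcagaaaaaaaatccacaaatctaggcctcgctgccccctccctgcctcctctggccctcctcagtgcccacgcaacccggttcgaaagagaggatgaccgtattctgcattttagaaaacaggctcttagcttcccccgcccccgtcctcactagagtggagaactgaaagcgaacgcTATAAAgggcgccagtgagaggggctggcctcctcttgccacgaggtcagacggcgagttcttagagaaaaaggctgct
NFKBIA: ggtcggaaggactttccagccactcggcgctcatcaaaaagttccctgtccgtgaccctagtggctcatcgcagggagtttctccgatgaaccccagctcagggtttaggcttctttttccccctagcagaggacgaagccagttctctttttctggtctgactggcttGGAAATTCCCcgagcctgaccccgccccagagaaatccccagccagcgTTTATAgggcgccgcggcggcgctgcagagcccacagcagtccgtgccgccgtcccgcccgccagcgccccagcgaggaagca
DUSP1: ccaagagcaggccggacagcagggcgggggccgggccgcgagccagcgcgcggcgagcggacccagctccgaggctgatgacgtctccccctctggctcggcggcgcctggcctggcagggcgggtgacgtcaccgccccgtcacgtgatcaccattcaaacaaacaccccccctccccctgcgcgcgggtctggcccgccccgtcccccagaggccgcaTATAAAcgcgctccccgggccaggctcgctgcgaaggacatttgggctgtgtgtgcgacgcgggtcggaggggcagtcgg

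NFKBIZ and NFKBIA each held both motifs and DUSP1 the TATA box. Among tested genes with a promoter in the table, TATAAA stood in 13.2% of those lost in every treatment (7 of 53), in 20.9% of those lost in 4 treatments and kept in emetine (9 of 43), in 6.27% of all tested genes and in 11.95% of all promoters of the table. GGGANNNNCC stood in 32.1%, 23.3%, 31.0% and 25.1% of the same 4 sets. These shares describe the letters in the windows and were not tested.

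The first question was which transcripts changed over the first 90 minutes whatever the treatment. Most transcripts held their place on the array and a small set fell far: the median change of all 14478 tested genes was 0.07, the median of the fallen genes -0.62 and that of the risen genes 0.33. By limma with the treatment as a block (Benjamini-Hochberg adjusted p under 0.05), 597 genes fell, 4.12% of those tested, and 659 rose, 4.55%. Of the fallen genes 513 were lower in 5 of 5 treatments, and of the risen genes 653 were higher in 5 of 5. The SD of a gene's change over the 5 pairs had a median of 0.175. In this fit 4500 genes had an unadjusted p under 0.05, and a limma fit of 5 arrays against 5 without the block called 34 fallen and 0 risen genes. Leaving out the emetine pair gave 937 fallen genes, and leaving out the hypoxia, tunicamycin, UPF1-depleted or control pair gave 155, 90, 82 and 122.

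Loss in every treatment, a change of -0.5 or lower in all 5 pairs, was met by 73 genes, 0.504% of those tested, and a change of -1 or lower in all 5 by 19 genes, 0.131%. Because the same values chose these genes, what follows describes them. All 73 were among the 597 fallen genes. Just inside the limit lay MZT2B (-0.50 in emetine), ISL2 (-0.50 in emetine) and MAP3K8 (-0.51 in UPF1-depleted cells), and just outside it ZNF230 (-0.48 in emetine) and NFKBIA (-0.47 in emetine). The mean change of members ran from -4.02 to -0.67. For 13 of the 73, at least 1 array at 1.5 hr read below the filter value, and for HYMAI and KIAA0754 all 5 did, so the size of those losses is limited by the low end of the array.

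Several of the deepest losses were at probe sets for noncoding RNA or for genes that host it. The probe set for TAF1D, a subunit of the RNA polymerase I selectivity factor whose gene hosts small nucleolar RNAs, read 42.3 in hypoxia, 28.4 in tunicamycin, 72.8 in emetine, 29.7 in UPF1-depleted cells and 20.3 in control at 1.5 hr, against 447.7, 578.0, 672.6, 626.5 and 541.9 at 0 hr in the same order. All 5 arrays at 1.5 hr were far below all 5 at 0 hr, and the mean change was -4.02 ± 0.67 (SD over 5 pairs; limma adjusted p = 0.000116). HYMAI, an imprinted noncoding RNA, fell by 3.75 ± 0.86 to 13.4 to 22.4 on every array at 1.5 hr, against 112.6 to 541.7 at 0 hr. The probe set for SNORA21, an H/ACA small nucleolar RNA, read 24.9, 20.01, 23.7, 26.2 and 26.4 at 1.5 hr. At 0 hr it read 193.5, 163.6, 142.3, 269.4 and 185.0, both in the order hypoxia, tunicamycin, emetine, UPF1-depleted cells and control. The change of -2.95 varied little over the 5 pairs (SD 0.29). Whether this probe set reads the mature RNA, a precursor or a host transcript was not determined.

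Transcripts of 2 miRNA genes fell. MIR181A2HG, the host of the miR-181a and miR-181b sequences above, read 60.3, 35.3, 46.4, 39.7 and 37.4 at 1.5 hr, against 348.0, 233.4, 177.1, 308.4 and 239.6 at 0 hr, in the order hypoxia, tunicamycin, emetine, UPF1-depleted cells and control. The mean change was -2.56 ± 0.39 and the groups of arrays did not overlap, with the smallest loss in emetine (-1.93, against -2.53 to -2.96). MIRLET7D, the let-7d precursor gene, read 39.8, 27.1, 31.7, 31.8 and 27.8 at 1.5 hr, against 114.2, 85.0, 151.3, 139.8 and 147.2 at 0 hr, a change of -1.99 ± 0.39. The smallest loss was in hypoxia (-1.52) and the largest in control (-2.40), with -2.25 in emetine. The noncoding RNAs ZNF143-AS1 (-1.88 ± 0.47), LOC114224 (-1.98 ± 0.65), ASAP1-IT1 (-1.86 ± 0.86) and RNF139-DT (-1.82 ± 0.21) and the pseudogene FRG1BP (-2.25 ± 0.48) were also among the 15 deepest. Of the 73 genes, 17.8% were lncRNA genes in the RefSeq table, against 6.84% of all tested, and 71.2% were protein-coding, against 91.1%. The 2 snoRNA and miRNA genes among them were of 15 tested.

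Among the protein-coding members were regulators known for short-lived messages, and most of those named here had their smallest loss in emetine. ADM, the vasodilator peptide adrenomedullin and a target of the hypoxia-inducible factor HIF, read 461.4, 38.6, 936.5, 210.9 and 28.9 at 1.5 hr, against 4274.9, 341.2, 1675.0, 471.4 and 349.4 at 0 hr, in the order hypoxia, tunicamycin, emetine, UPF1-depleted cells and control. Its mean change of -2.39 had an SD of 1.29, with -0.84 in emetine and -1.16 after UPF1 depletion, against -3.59 in control. DDIT4, a stress-induced inhibitor of mTORC1, changed by -2.79, -2.50, -0.51, -1.44 and -1.66 in the same order. NFKBIZ, a nuclear regulator of NF-kappaB targets, read 170.1, 222.0, 1373.6, 151.7 and 101.7 at 1.5 hr, against 811.9, 1232.1, 2210.0, 660.7 and 583.4 at 0 hr. Its change was -0.69 in emetine and -2.12 to -2.52 elsewhere. The NF-kappaB subunit gene NFKB2 changed by -1.13 ± 0.23, with -1.20 in emetine, and the inhibitor of NF-kappaB signalling TNFAIP3, which was named after its values were seen, by -1.37 ± 0.71. The transcription factor IRF1 changed by -1.06 ± 0.54 and the kinase gene CDK13, which acts in transcription elongation, by -1.25 ± 0.49.

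**Figure D1:**
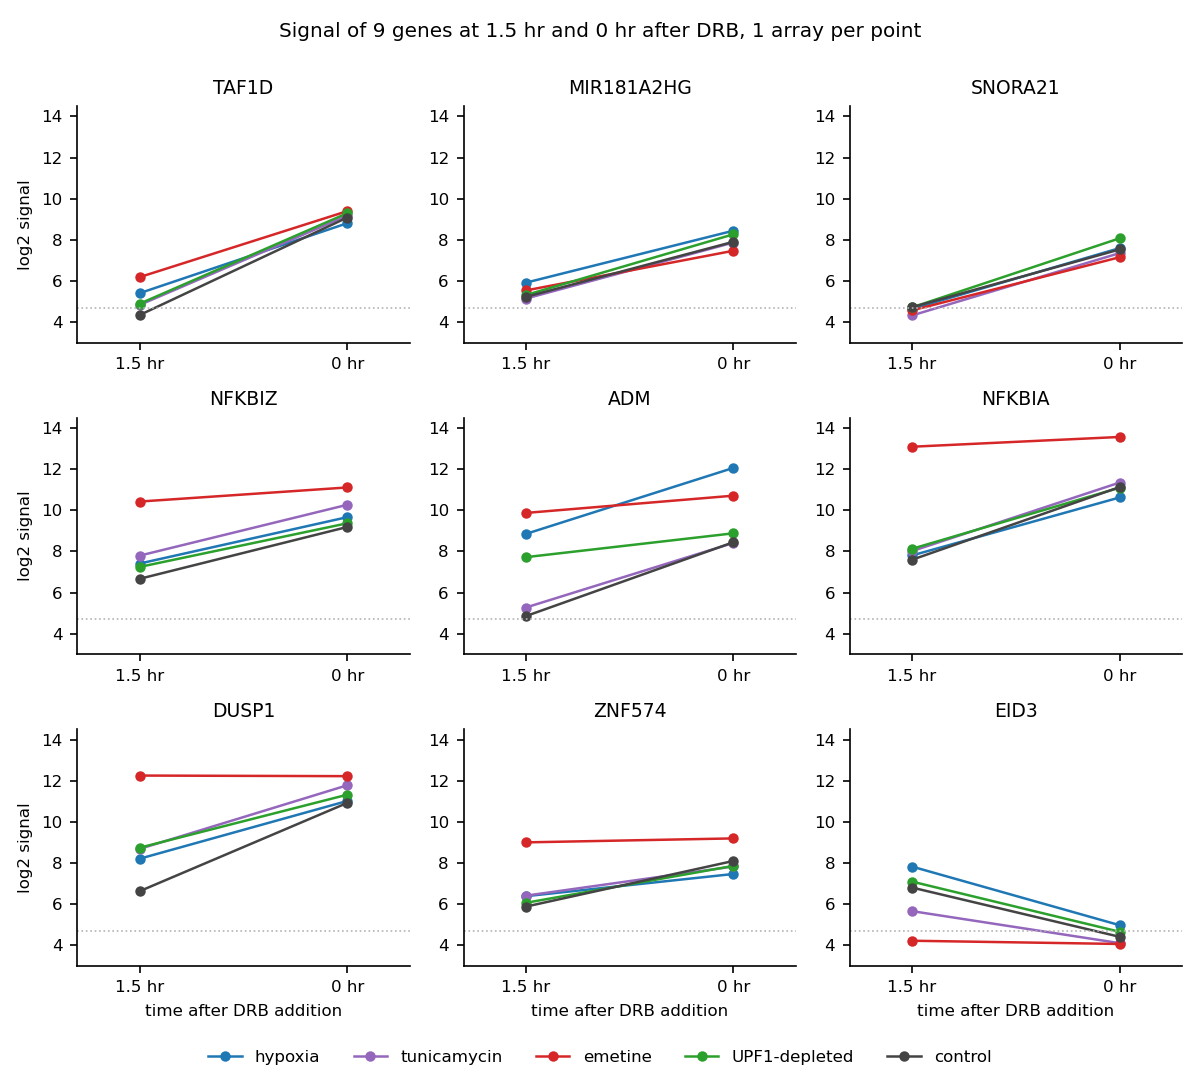
Log2 signal (vertical axis) of 9 genes at 1.5 hr and 0 hr after DRB, 1 point per array, lines joining the 2 arrays of a treatment; the dotted line is the filter value (log2 4.70). TAF1D, MIR181A2HG and SNORA21 fell in every treatment, NFKBIA, DUSP1 and ZNF574 stayed high in emetine, and EID3, below the filter value on 4 of 5 arrays at 0 hr, was higher at 1.5 hr in the treatments other than emetine (changes 1.56 to 2.85, against 0.16 in emetine).

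Several of these losses belong to 1 probe set of a gene and not to the others. Of the 73 genes, 42 had another probe set above the filter, 81 probe sets in all, of which 33 carried several symbols. Of the 81, 61 had a mean change above -0.2 and 13 one of -0.5 or lower, with a median of -0.02. Where these probe sets lie in their genes, and so whether some read introns or unprocessed RNA, was not determined. For 27 genes every other probe set above the filter lay above -0.2, and for 10 genes some other probe set was at -0.5 or lower. Both counts include the probe sets with several symbols, which may read other genes. For some of the 27, among them EIF3C, ARF1 and SNORA21, all other probe sets above the filter were of that kind. EIF3C, a subunit of translation initiation factor 3, shows the contrast: the probe set that carries its symbol alone changed by -3.48 ± 0.52, and the 3 brighter ones shared with other symbols by 0.11 to 0.12. The same held for the trafficking GTPase gene ARF1 (named after its values were seen), at -1.71 ± 0.40 against -0.07 to 0.20, for SNORA21, whose 2 shared probe sets changed by 0.03 and 0.34, and for CDK13, whose other probe sets above the filter changed by -0.14 to 0.04. For TAF1D the 2 shared probe sets changed by -0.43 and -0.84 in the mean, with -0.11 and -0.20 in emetine. For VMP1 the 3 shared ones changed by -0.53 to -1.83 in the mean, with -0.06, -1.01 and -0.19 in emetine. For NFKBIZ and TNFAIP3 the second probe set changed by -1.39 and -1.03 in the mean, with -0.68 and -0.58 in emetine. For IRF1 the second probe set changed by -0.52 in the mean, with 0.04 in tunicamycin and -0.06 in UPF1-depleted cells. For NFKB2 the other probe set above the filter changed by -0.22, with 0.03 in hypoxia, 0.13 in tunicamycin, -0.72 in emetine, -0.01 in UPF1-depleted cells and -0.54 in control.

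**Figure D2:**
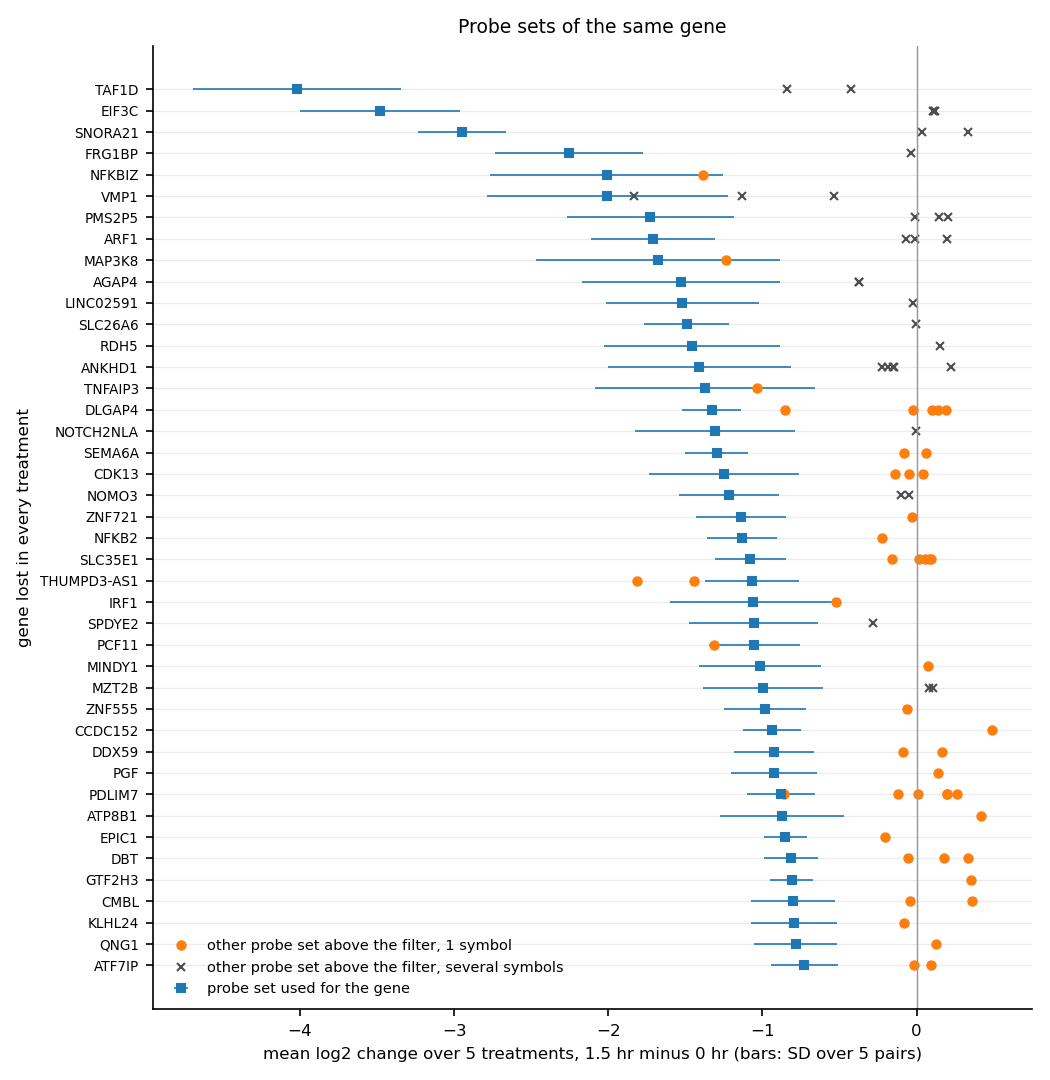
Mean log2 change over the 5 treatments (horizontal axis) of every probe set above the filter for the 42 lost genes that had more than 1; squares with SD bars are the probe set used for the gene, circles other probe sets with 1 symbol and crosses those with several. For 27 of the genes the other probe sets, those with several symbols included, all lay above -0.2.

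The probe sets that carried the losses differed in kind from the rest. Of the 73, 19.2% were designed to a RefSeq transcript, against 33.9% of all tested, and 31.5% ended in _x_at, the suffix for probes that can also match other transcripts, against 7.03%. These shares describe the set and were not tested. Loss in every treatment is thus a statement about these probe sets and not about all RNA of their genes.

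The second question was which early losses depended on the treatment. Emetine stood apart from the other treatments in number. A change of -1 or lower was seen for 37 genes in emetine (0.256% of those tested), against 194 in hypoxia (1.34%), 220 in tunicamycin (1.52%), 203 in UPF1-depleted cells (1.4%) and 314 in control (2.17%). For each treatment in turn, the genes at -1 or lower in the other 4 were taken and their change in the fifth was read, which leaves the fifth treatment out of the choice. There were 76 such genes for emetine, with a median change of -0.29 in emetine, 19 of them (25%) at -1 or lower there and 50 above -0.5. For hypoxia there were 24, with a median of -1.32 and 79.2% at -1 or lower, and for UPF1-depleted cells 20, with a median of -1.89 and 95%. For tunicamycin and control there were 19 each, with medians of -2.16 and -2.06 and all at -1 or lower. In each round the genes at -1 or lower in the fifth were, by construction, the same 19. The sets for the other 4 treatments also required -1 or lower in emetine, which 37 genes met. The medians and shares are thus of unlike gene sets. With each gene given the median of its probe sets, the genes chosen in the same way had a median of -0.85 in emetine, and without the probe sets ending in _s_at or _x_at one of -0.98. These settings choose the genes anew, so the values are not for the same 76 genes.

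The 50 genes at -1 or lower in 4 treatments and above -0.5 in emetine included 16 zinc finger genes with ZNF symbols (32%, against 2.39% of all tested genes). Examples among the others, picked after their values were seen, were the feedback inhibitors NFKBIA, DUSP1, DUSP2 and GADD45B, the immediate early genes JUN, IER3, IER5 and KLF6, the kinases SGK1 and PLK2 and the differentiation inhibitor ID1. Protein-coding genes made up 96% of the 50, against 91.1% of all tested genes. A RefSeq transcript lay behind 52% of their probe sets, against 33.9%. Their median span was 8.07 kb, against 26.9 kb over all tested genes. At 0 hr, before DRB, 44 of the 50 (88%) read higher in emetine than in control, against 43.5% of all tested genes. The median log2 difference was 1.13, against -0.07 over all tested genes. In tunicamycin, UPF1-depleted cells and hypoxia 40, 37 and 31 of the 50 read higher than in control (medians 0.34, 0.18 and 0.09). Over all tested genes the shares there were 44.9%, 52.9% and 46.5%. The choice of the 50 genes used these same arrays at 0 hr, so the levels at 0 hr only describe the set. From 1.5 to 3 hr the median change was -0.50 in hypoxia, -1.03 in tunicamycin, -0.13 in emetine, -1.06 in UPF1-depleted cells and -0.36 in control. The choice of genes used the array at 1.5 hr but not that at 3 hr. From 3 to 4.5 hr, with no shared array, the medians were -0.02, -0.38, -0.05, -0.18 and -0.09.

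**Figure D3:**
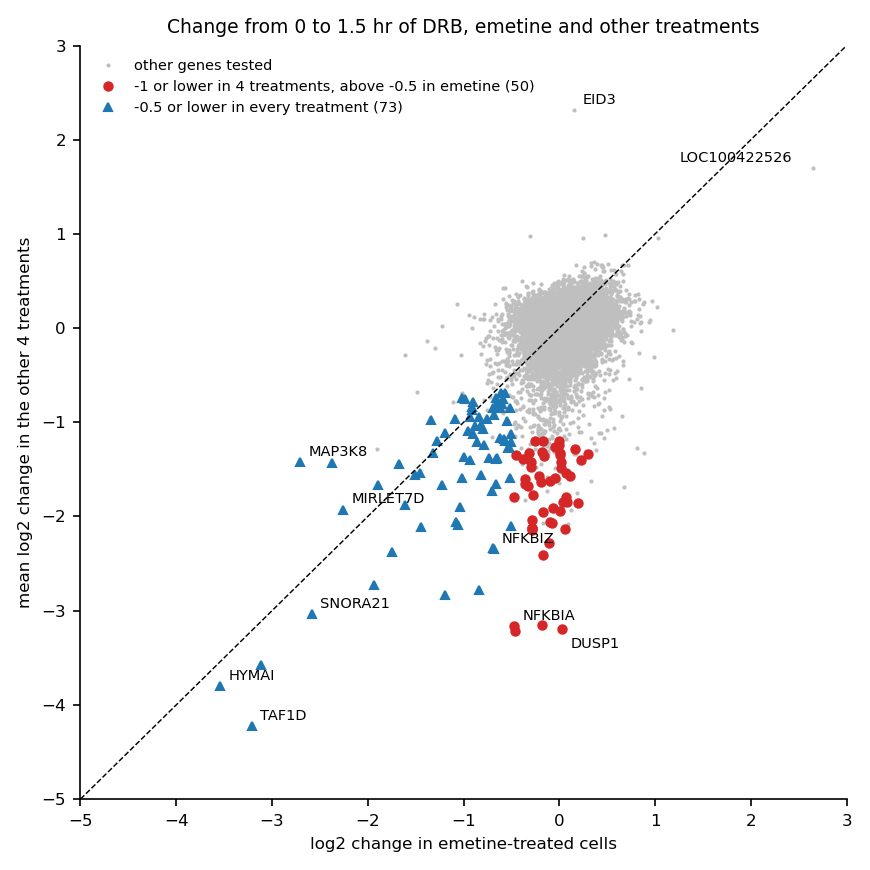
Log2 change from 0 to 1.5 hr in emetine-treated cells (horizontal axis) and its mean over the other 4 treatments (vertical axis), 1 point per gene; the dashed line marks equal change. Of the 73 genes lost in every treatment (triangles) most lie below the line, and the 50 genes lost in 4 treatments (circles) lie between -0.48 and 0.29 in emetine.

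With 1 array per treatment and time, a test of such a difference needed the later arrays for its error: all 20 arrays were fitted with a free level at 0 hr and a line from 1.5 to 4.5 hr per treatment. The comparisons of the 4 stresses with control share the control arrays. Against control, 4 genes changed differently in emetine, 4 higher (0.0276%) and 0 lower, and 1281 had an unadjusted p under 0.05. They were NFKBIA, which encodes the inhibitor that holds NF-kappaB in the cytoplasm, CD274, which encodes the checkpoint ligand PD-L1, HNRNPA1, an RNA-binding splicing factor, and the zinc finger gene ZNF574. NFKBIA read 8717.9 at 1.5 hr and 12116.9 at 0 hr in emetine, against 193.3 and 2239.3 in control. In hypoxia, tunicamycin and UPF1-depleted cells it read 223.5, 258.5 and 279.4 at 1.5 hr, against 1578.2, 2608.8 and 2192.5 at 0 hr. Emetine minus control was 3.14 ± 0.37 for NFKBIA (SE; limma adjusted p = 0.0377), with the smallest loss of the 5 treatments in emetine (-0.47, against -2.82 to -3.53).

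CD274 read 211.6 at 1.5 hr and 184.4 at 0 hr in emetine, against 84.3 and 410.2 in control, a difference in change of 2.45 ± 0.25. ZNF574 read 513.8 and 587.3 in emetine, against 58.9 and 274.8 in control, a difference of 2.09 ± 0.25. For HNRNPA1 the probe set used read 19089.3 and 18530.6 in emetine, against 1549.0 and 8239.3 in control, a difference of 2.44 ± 0.20. The other HNRNPA1 probe sets did not share this: the 2 brightest, which carry several symbols, changed by 0.04 and 0.05 in the mean, and 2 dimmer ones, 1 of them below the filter, by -4.08 and -4.43. In emetine these 2 changed by -3.72, against -3.95 to -4.33 in the other treatments, and by -4.49, against -3.97 to -4.98. With the median of probe sets, or without those ending in _s_at or _x_at, its difference turned to -0.49. The second CD274 probe set (signal 86.5) changed by 0.19 in emetine and -0.43 in control.

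In hypoxia and UPF1-depleted cells 0 genes differed from control by this limma test, with 684 and 598 at an unadjusted p under 0.05. If no gene differed, a share of 0.05 of the 14478 tested genes would be expected under that limit. The fit with 12 coefficients also gave 0 called genes for these 2 treatments. In tunicamycin 1 gene was higher (0.00691%) and 2 were lower (0.0138%), with 866 at an unadjusted p under 0.05. The higher gene was IFFO1, which encodes a nuclear intermediate filament family protein. It read 712.5 at 1.5 hr and 603.1 at 0 hr in tunicamycin, against 169.3 and 497.9 in control, a difference in change of 1.78 ± 0.20, and its second probe set changed by 0.18 in tunicamycin and -1.74 in control. The lower genes were KCNA1, a potassium channel gene (35.8 and 65.3, against 84.7 and 42.2 in control, a difference of -1.81 ± 0.18), and SELENOP, a selenium transport protein (28.9 and 51.5, against 39.7 and 17.8, a difference of -1.95 ± 0.21). Both were dim, and their other probe sets did not show the difference: that of KCNA1 changed by 0.18 in tunicamycin and 0.00 in control, and those of SELENOP, both below the filter, by 0.27 and 0.22 against 0.12 and -0.19. The F test over the 4 stresses called 0 genes, with 1056 at an unadjusted p under 0.05 and a lowest adjusted p of 0.0823, and the fit with 12 coefficients called 31.

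A further comparison, added after the data were seen, set each treatment against the mean of the other 4 in the same fit. It called 26 genes higher in emetine (0.18%), 4 lower in emetine (0.0276%), 3 lower in tunicamycin (0.0207%), and 0 in hypoxia, UPF1-depleted cells and control, where 665, 531 and 852 genes had an unadjusted p under 0.05. DUSP1, the phosphatase that switches off MAP kinases, read 296.0, 412.1, 4881.9, 428.7 and 99.1 at 1.5 hr, against 2073.7, 3518.5, 4784.4, 2561.3 and 1941.5 at 0 hr, in hypoxia, tunicamycin, emetine, UPF1-depleted cells and control. The array at 1.5 hr was as high as that at 0 hr in emetine (change 0.03) and lower in the other 4 treatments, and emetine minus the other 4 was 3.39 ± 0.52 (SE; limma adjusted p = 0.0437). The 2 other DUSP1 probe sets above the filter, both far dimmer (83.6 and 59.2 at 0 hr), did not show this. The first changed by -0.74 in emetine, against -0.19 in hypoxia, -1.78 in tunicamycin, -0.91 in UPF1-depleted cells and -0.94 in control, and the second by 0.02 in the mean. The 26 also hold the AU-rich element binding protein ZFP36L1 (1.27 ± 0.16), the activin subunit INHBA (1.32 ± 0.17, with a dimmer probe set at -0.05 in the mean), the cell cycle regulator SERTAD3 (1.92 ± 0.29), the glycogen-targeting phosphatase subunits PPP1R3B (2.24 ± 0.26) and PPP1R3C (1.86 ± 0.28), and 7 genes with ZNF symbols, among them ZNF222 (2.25 ± 0.27), ZNF430 (1.59 ± 0.19) and ZNF443 (1.56 ± 0.24). NFKBIZ (1.54 ± 0.23) and VMP1 (1.60 ± 0.21), which encodes an autophagy membrane protein, were lost in every treatment and were also called, with a smaller log2 loss in emetine. For VMP1 that smaller loss began from a low level: it read 38.7 at 1.5 hr and 62.4 at 0 hr in emetine, against 66.3 to 90.9 at 1.5 hr and 368.0 to 457.5 at 0 hr in the other treatments, so its level at 1.5 hr was lowest in emetine.

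Of the 4 genes lower in emetine, MAP3K8, the kinase TPL2, read 38.5 at 1.5 hr and 251.5 at 0 hr in emetine, a change of -2.71 against -0.51 to -1.83 in the other treatments. Its second probe set above the filter did not share this: it changed by -0.60 in emetine, the smallest loss of the 5, against -1.05 to -1.78 in the other treatments. EID3, a gene of the EP300-inhibitor family, rose over the 5 treatments by 1.88 ± 1.07, with 0.16 in emetine. It read 227.1, 50.6, 18.7, 136.9 and 112.1 at 1.5 hr, against 31.5, 17.2, 16.7, 25.2 and 21.3 at 0 hr, in hypoxia, tunicamycin, emetine, UPF1-depleted cells and control. Of these, the emetine array at 1.5 hr and 4 of the 5 arrays at 0 hr lay below the filter value of 26.0, so EID3 passed the filter through its high arrays and the sizes of its changes are set by background. LTB and CHRNB1 differed by -1.27 ± 0.18 and -0.98 ± 0.15. The second LTB probe set was also lowest in emetine (-0.55, against 0.07 to 0.48), but it was dim (mean signal 28.1 at 0 hr), near the filter value. The 3 genes lower in tunicamycin were IGFBP5, an insulin-like growth factor binding protein (113.6 at 1.5 hr and 558.8 at 0 hr in tunicamycin, against 141.5 to 240.5 and 133.5 to 165.7 in the other treatments), the metalloproteinase MMP7 and KCNA1. The 5 other IGFBP5 probe sets changed by -0.37 to 0.21 in tunicamycin. The ratio of 3' to 5' ACTB signal was highest in emetine and hypoxia, and its part in these differences was not tested.

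**Figure D4:**
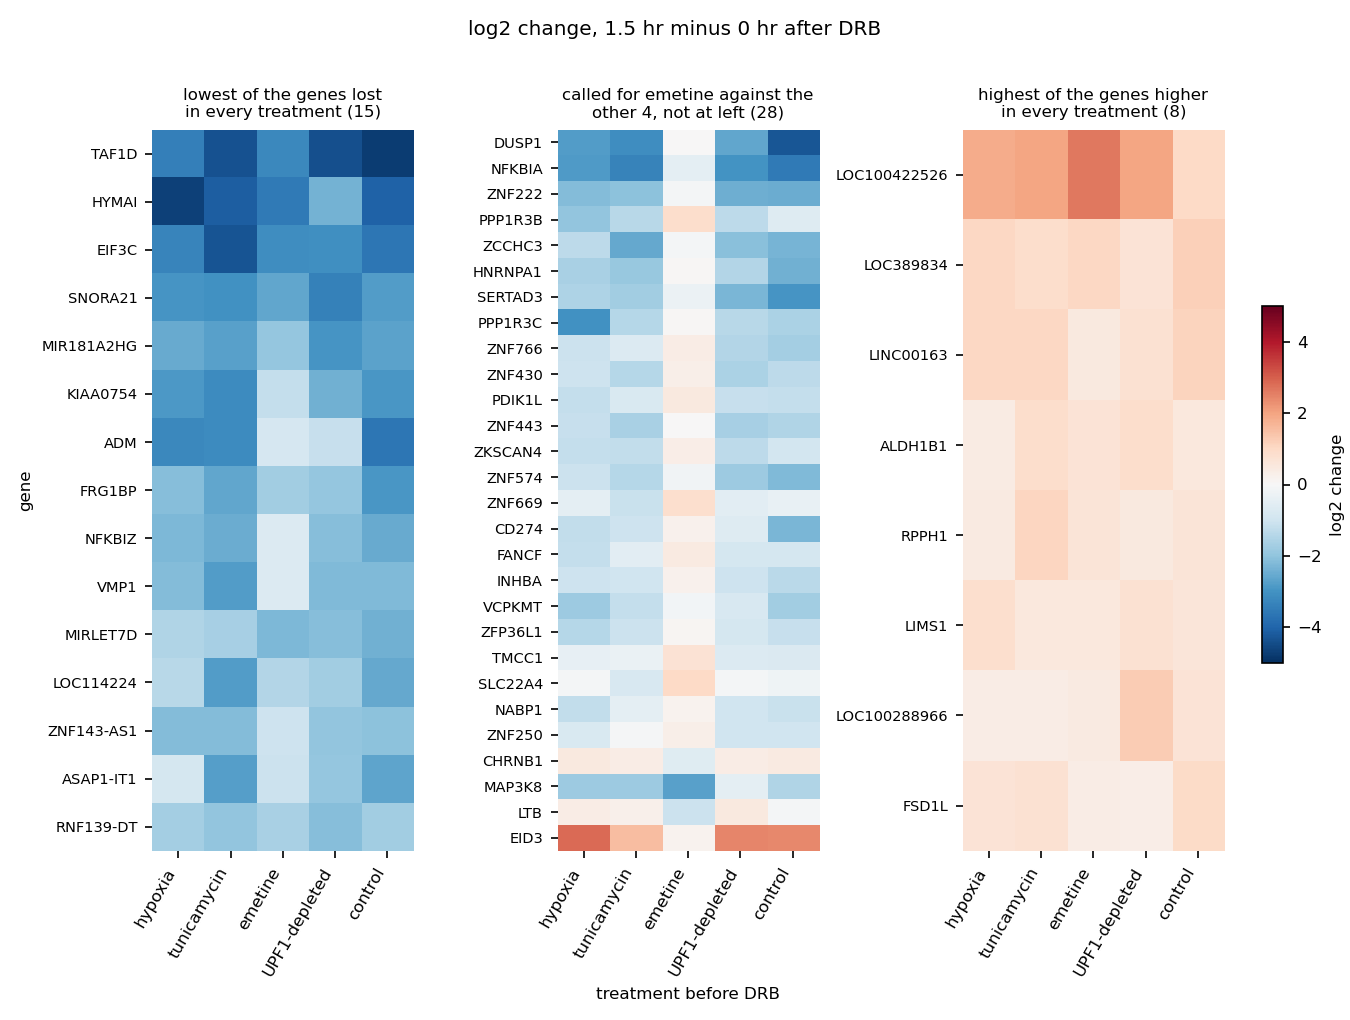
Log2 change from 0 to 1.5 hr of DRB in each treatment (columns; colour scale from -5 to 5) for the 15 lowest of the genes lost in every treatment, the 28 called genes for emetine against the other 4 that are not among them, and the 8 highest of the genes higher in every treatment. In the middle panel the emetine column is pale in most rows where the others are blue, except for CHRNB1, MAP3K8, LTB and EID3 at the foot.

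Gene lists were read against 4.12% of tested genes fallen and a median change of 0.07. Of 28 immediate early factors 13 fell and 0 rose. The median of the list was -0.84 in hypoxia, -0.81 in tunicamycin, -0.17 in emetine, -0.36 in UPF1-depleted cells and -1.10 in control. JUN, a component of the AP-1 factor, changed by -1.75, -1.49, -0.07, -1.72 and -3.32 in that order. IER3 changed by -1.96 ± 1.24, IER2 by -1.41 ± 0.94, KLF6 by -1.22 ± 0.81, KLF10 by -1.07 ± 0.82 and FOS by -1.11 ± 0.87, all past the test, and EGR1 by -1.28 ± 1.06, which was not (limma adjusted p = 0.0507). Of 20 genes of ID, SMAD and Notch feedback 10 fell and 0 rose, with medians of -0.60, -0.62, -0.13, -0.32 and -0.98. ID1, an inhibitor of helix-loop-helix factors, changed by -1.69 ± 0.94, the Notch effector HES1 by -1.53 ± 0.92, TGIF1 by -1.29 ± 0.76 and CITED2 by -1.44 ± 1.06.

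Of 346 zinc finger genes with ZNF symbols 87 fell, 25.1%, and 2 rose. In emetine their median change was 0.02, against -0.20 in hypoxia, -0.12 in tunicamycin and -0.30 in both UPF1-depleted cells and control, and emetine gave the highest change of the 5 treatments for 191 of them, against 3319 of all 14478 genes (22.9%). A change of -1 or lower was seen for 0 of the 346 in emetine, where 0.256% of all tested genes had one, and for 53 in control, where 2.17% had one. The count in emetine is near that background. Of 22 genes of NF-kappaB feedback and chemokines 7 fell and 0 rose, and 3 of them (NFKBIZ, TNFAIP3 and NFKB2) were lost in every treatment. The chemokine CXCL8 changed by -0.52 ± 0.35. Of 24 genes of MAP kinase and receptor feedback 6 fell and 0 rose, with DUSP2 at -1.39 ± 0.66, SPRY2 at -1.24 ± 1.004 and RGS16 at -1.24 ± 0.65.

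Of 27 survival and cell cycle genes known for short life 6 fell and 1 rose, with the kinase SGK1 at -1.69 ± 1.10, the mitotic inhibitor WEE1 at -1.20 ± 0.73 and the anti-apoptotic MCL1 at -1.15 ± 0.55. The 2 splicing kinases CLK4 (-1.09 ± 0.58) and CLK1 (-0.94 ± 0.28) were among 4 of 28 splicing genes that fell, and PLK2 (-1.55 ± 0.97) among 3 of 23 p53 targets, of which 1 rose. Of 37 genes of transcription elongation and Mediator 7 fell and 0 rose, among them CCNT1, a cyclin of the kinase that DRB blocks (-0.42 ± 0.30), and MED26 (-0.62 ± 0.32). Of 27 mRNA decay genes 6 fell and 1 rose, with BTG1 at -0.74 ± 0.30 and ZFP36 at -0.47 ± 0.16.

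Of 33 ER unfolded protein response genes 1 fell, the co-chaperone DNAJB9 (-0.89 ± 0.55). XBP1, a transcription factor of that response, did not pass the test over the 5 treatments (limma adjusted p = 0.158) and read 1149.4 at 1.5 hr and 1151.7 at 0 hr in tunicamycin, against 172.2 and 440.1 in control, a difference in change of 1.56 ± 0.54 (SE; limma adjusted p = 0.701). Its second probe set above the filter went the other way, with -0.67 in tunicamycin and -0.35 in control. GADD45A, a growth arrest gene, changed by -0.11 in tunicamycin and -0.06 in emetine, against -1.93 in control, with limma adjusted p of 0.179 for tunicamycin and 0.0527 for emetine. Of 42 HIF targets 3 fell, ADM, DDIT4 and BHLHE40. Of 35 genes of the integrated stress response 5 fell and 0 rose, and ATF3, a factor of that response, changed by -0.68 ± 0.71 and did not pass. Of 19 NMD target transcripts 3 fell (GADD45B, DDIT3 and CDKN1A) and of 15 NMD factors 2. The medians of the NMD targets were -0.20 in hypoxia, -0.11 in tunicamycin, -0.08 in emetine, -0.16 in UPF1-depleted cells and -0.45 in control.

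Of 54 cytosolic ribosomal protein genes 0 fell and 0 rose by limma and 0 had an unadjusted p under 0.05, with medians of 0.02 to 0.06 across treatments. Over all 14478 tested genes 4500 had an unadjusted p under 0.05 in this limma fit. Of 64 oxidative phosphorylation genes 1 fell and 0 rose, with a median of 0.12. Of the 64, 22 had an unadjusted p under 0.05, a share near that of all tested genes. Of 27 proteasome subunits, 15 aminoacyl-tRNA synthetases, 23 collagen and matrix genes and 32 mitotic genes limma called 0 in either direction, and 1, 2, 2 and 4 had an unadjusted p under 0.05.

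**Figure D5:**
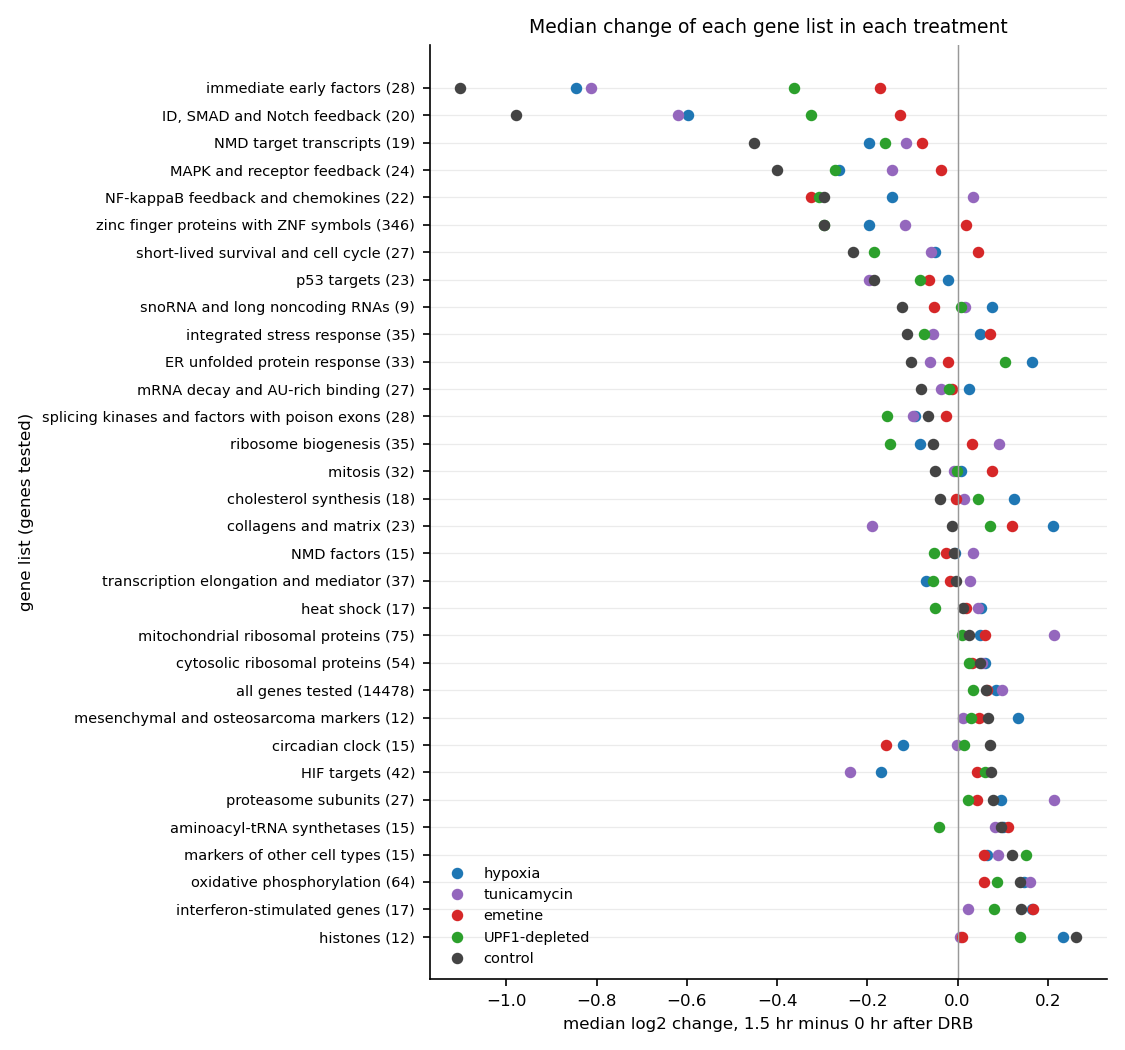
Median log2 change from 0 to 1.5 hr of DRB (horizontal axis) of each gene list (rows, with the number of genes tested) in each treatment (colours). Immediate early factors run from -0.17 in emetine to -1.10 in control, and cytosolic ribosomal proteins lie within 0.02 to 0.06.

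Of the 659 risen genes 35 were 0.3 or higher in every treatment. The highest was LOC100422526, which read 35.7, 63.4, 190.6, 61.0 and 32.2 at 1.5 hr in hypoxia, tunicamycin, emetine, UPF1-depleted cells and control, against 9.9, 16.1, 30.4, 15.7 and 16.0 at 0 hr. It started below or near the filter value and its change was 1.89 ± 0.58. RPPH1, the RNA of RNase P and a transcript of RNA polymerase III, rose by 0.67 ± 0.25, and it read 170.7, 288.8, 370.3, 135.2 and 230.4 at 1.5 hr, against 125.0, 137.3, 236.1, 95.7 and 145.7 at 0 hr. The aldehyde dehydrogenase ALDH1B1 (0.67 ± 0.21), the focal adhesion adaptor LIMS1 (0.65 ± 0.15), LOC389834 (0.97 ± 0.18), LINC00163 (0.88 ± 0.26), FSD1L (0.62 ± 0.26) and LOC100288966 (0.62 ± 0.38) completed the 8 highest. The second ALDH1B1 probe set changed by -0.03. Other probe sets above the filter changed by 0.18, -0.04 and 0.30 for LOC389834, and by 0.12 and 0.30 for LIMS1. For FSD1L they changed by 0.41 and 0.41. Risen genes had a median span of 58.7 kb and 2 of the 659 were zinc finger genes with ZNF symbols. A rise is relative to the typical transcript of the array, and centring each array on ribosomal protein genes, whose median change was 0.04, gave 218 risen genes.

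The first interval was also set against the later rate, the slope over 1.5 to 4.5 hr, as a mean over the 5 treatments. The first interval was lower for 187 genes (1.29%) and higher for 115 (0.794%). Of the genes lost in every treatment, TAF1D had a fitted change of -4.04 over the first 1.5 hr and of -0.20 per 1.5 hr afterwards, SNORA21 -2.97 and 0.01, and EIF3C -3.55 and -0.24. These genes were chosen by their first interval. At 1.5 hr, 1 of the 5 arrays for TAF1D, 3 for SNORA21 and 4 for EIF3C already read below the filter value. Little further fall could show from there, so their later rates cannot tell slow decay from the floor of the array. Over 3 to 4.5 hr, on arrays that the choice did not use, the 73 genes had medians of -0.12 in hypoxia, -0.10 in tunicamycin, -0.27 in emetine, 0.00 in UPF1-depleted cells and -0.17 in control. On the higher side EID3 had 1.88 over the first interval and 0.09 afterwards, LOC100422526 1.74 and -0.25, LIMS1 0.68 and -0.58, and SRGAP2 0.39 and -0.995. The count of genes with a higher first interval ran from 6 without the emetine array at 1.5 hr to 282 without the control array at 4.5 hr.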

How the data were processed

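RNA of U2OS cells from 20 samples, 1 array per treatment and DRB time, had been hybridised to Affymetrix 3' expression arrays with 54675 probe sets. The deposited values are linear intensities summarized per probe set by the authors with RMA (named in the submitters' processing notes). RMA corrects background and normalizes between arrays, and a loss shared by most transcripts would therefore not show. The RMA version is not given in the sources used here, and arrays carry no counts, so their number limits the precision.

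Intensities as deposited were taken to log2. Of the probe sets, 41097 carried 1 gene symbol in the platform annotation, 1801 several and 11777 none, and 6 control probe sets were set aside. Each of 19775 genes was read from its probe set of highest mean, and the 14478 with a mean over all arrays above the 40th percentile of probe sets (log2 4.70) were tested with limma 3.58.1 in R 4.3.3, with Benjamini-Hochberg adjustment over all of them and a threshold of 0.05. The paired fit used 10 arrays with treatment as a block. Because each treatment and time had 1 array, its error holds real differences between treatments as well as array noise. Differences between treatments and between intervals came from all 20 arrays, with a free level at 0 hr and a line from 1.5 to 4.5 hr per treatment, and an alternative with 12 coefficients used fewer terms. The paired fit and the contrast of emetine with control were also run on simulated data, and the outcome is not given here. Alternatives were other filters, normalizations, probe set rules and models and leaving out each pair or array.

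The members and lists were chosen with earlier results of these data known. Named genes came first from those called in the paired fit. They were the 15 lowest at -0.5 or lower and the 8 highest at 0.3 or higher in every treatment. Further ones were up to 5 each way per stress and for the early against late comparison. The 6 largest F statistics, the 3 strongest of each list and a list of stress and immediate early genes were also named. Other genes were named after their values were seen, among them those of the added comparison with the other 4 treatments and those at the limits. One gene of the rule is not reported here. RefSeq tables (GRCh38.p14) gave the sequences.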

Additional observations from a re-analysis of the deposited data

Results flagged for a closer look

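With 1 array per treatment and time, no group could be searched for outlying arrays. The differences between treatments listed here passed limma with Benjamini-Hochberg adjustment, and each compares the change from 0 to 1.5 hr in 1 treatment with that in control or, in the comparison added after the data were seen, with the mean of the other 4. The causes were not tested.

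In tunicamycin against control, IFFO1 differed by 1.78, KCNA1 by -1.81 and SELENOP by -1.95, and against the other 4 treatments IGFBP5 differed by -2.62 and MMP7 by -1.69. MMP7 read 37.4 at 1.5 hr and 106.1 at 0 hr in tunicamycin, against 42.7 and 37.1 in control. In emetine against control, CD274 differed by 2.45, HNRNPA1 by 2.44, NFKBIA by 3.14 and ZNF574 by 2.09.

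In emetine against the other 4 treatments the positive differences were 3.39 for DUSP1, 2.25 for ZNF222, 2.24 for PPP1R3B, 1.92 for SERTAD3, 1.86 for PPP1R3C, 1.60 for VMP1, 1.59 for ZNF430, 1.56 for ZNF443, 1.54 for NFKBIZ, 1.32 for INHBA and 1.27 for ZFP36L1. The negative ones were -2.34 for EID3, -1.27 for LTB, -1.27 for MAP3K8 and -0.98 for CHRNB1. The second MAP3K8 probe set went the other way, with -0.60 in emetine against -1.05 to -1.78 in the other treatments, 2 dimmer DUSP1 probe sets did not share the difference, and EID3 lay below the filter value on 4 of 5 arrays at 0 hr. LTB, a lymphotoxin subunit gene, read 121.3 at 1.5 hr and 254.2 at 0 hr in emetine, against 74.1 and 80.0 in control.

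Among probe sets outside the gene comparisons, the one for the 5' end of 28S ribosomal RNA changed by -1.06 ± 0.26 (SD over 5 pairs). It read 5715.5, 4121.4, 4420.3, 5650.1 and 4585 at 1.5 hr in hypoxia, tunicamycin, emetine, UPF1-depleted cells and control, against 13381, 10359, 7326.2, 10182 and 10295 at 0 hr. The probe set for the middle of 28S ribosomal RNA changed by -0.57 ± 0.45, from -0.17 in emetine to -1.06 in control. That for its 3' end changed by 0.31 but was dim, at 32.9 to 64.6, near the filter value of 26.0. Those for 18S ribosomal RNA changed by -0.07 to 0.02.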

How the results depend on the processing

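The 5 arrays per time are single arrays, dim probe sets have a floor, and no spike sets an absolute scale. Genes fallen (597) stayed within 1.5 times of that count under every alternative listed, except without the block (34) and on leaving out a pair (82 to 937). The genes risen from 0 to 1.5 hr over the 5 treatments (659) numbered 1257 with quantile normalization, 218 centred on ribosomal proteins, 1011 with the median of probe sets, 1179 with a trended robust fit, 0 without the block and 18 to 611 leaving out a pair. Genes lost in every treatment (73) numbered 44 with the 60th percentile filter, all among the 73, 136 with the median of probe sets, of which 42 were shared, 19 at the limit of -1, and 74 to 279 leaving out a pair. The highest, 279, came without emetine.

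Against control, emetine (4) gave 25 genes at the 60th percentile filter, 16 with no filter, 7 with the filter on 0 hr arrays, 18 centred on ribosomal proteins, 37 with the median of probe sets, 22 without probe sets ending in _s_at or _x_at, 71 with the trended robust fit, 23 with 12 coefficients and 0 to 17 leaving out an array. Tunicamycin (3) gave 0, 1, 11 and 5 with the median of probe sets, without those suffixes, with the trended robust fit and with 12 coefficients, and 0 to 4 leaving out an array. Hypoxia (0) gave 2 with the median of probe sets, and UPF1-depleted cells (0) gave 0 to 1 leaving out an array. The F test (0) gave 2 at the 60th percentile, 4 with the median of probe sets, 5 without those suffixes, 73 with the trended robust fit, 31 with 12 coefficients and 0 to 9 leaving out an array.

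Genes lower in the first interval (187) numbered 379 with the median of probe sets and 85 to 229 leaving out an array. Genes higher (115) numbered 70 with no filter, 178 with the median of probe sets, 314 with the trended robust fit and 6 to 282 leaving out an array. Against the other 4 treatments, emetine (30) gave 13 with quantile normalization and 48 with the median of probe sets, tunicamycin (3) gave 0 with quantile normalization and 6 without those suffixes, and hypoxia (0) gave 2 with the median of probe sets. The median in emetine of genes at -1 or lower in the other 4 (-0.29), with genes chosen anew, was -0.85 with the median of probe sets and -0.98 without those suffixes.

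Of 677 values of named genes under the settings other than leaving out, 578 kept direction and side of the threshold, 92 lost the call, 4 gained it and 3 reversed. The reversed ones were the change of CDK13, 0.042 with the median of probe sets, and emetine minus control of HNRNPA1, -0.49 with the median of probe sets and -0.49 without those suffixes. These follow from which probe sets stand for the gene. Leaving out 1 pair or array kept 277 of 475 and ended the call of 192, and reversed 0. The causes of the other changes were not tested. No paired analysis by replicate number was possible because each treatment and time had 1 array, and the pairing by treatment is in the fit reported.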
